A study of Mus musculus with 21 samples.

Results

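The amino acid transporters described here are the genes whose symbol in the probe annotation starts with Slc1a, Slc3a, Slc6a, Slc7a, Slc36a, Slc38a or Slc43a. This choice took 120 of the 45281 probes of the array and 58 of its 19057 genes, and it used no measured value. The letters alone also take Slc7a6os, which lies opposite a carrier gene and encodes no carrier. A gene was tested when a probe of it had a detection p-value under 0.05 on at least 3 arrays, and 36 of the 58 genes (50 of the 120 probes) did so, 35 of them carriers. The brightest such probe stood for the gene. Of these 36 genes, 15 were detected on all 21 arrays and 15 on fewer than 11, and 47 of the 120 probes were detected on no array.

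Liver RNA came from female CD-1 mice that were 3 months old, with 1 array for each mouse and 3 mice in each of 7 groups. The control mice (CO in the labels) were untreated. The PH groups were killed 1, 3 and 6 h after partial hepatectomy, the removal of 70% of the liver mass, and the TCP groups at the same times after a single dose of 3 mg/kg of TCPOBOP (TCP), given by gavage in dimethyl sulfoxide and corn oil. TCP is a ligand of the nuclear receptor CAR and makes the liver grow without loss of tissue. No sham-operated group, no group given the vehicle alone and no control killed at 1, 3 or 6 h is among the arrays, so that surgery, gavage and the hour of the day cannot be told apart from the treatments.

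Amino acids cross cell membranes through carriers that belong to a few gene families. Slc38a carriers take up glutamine, alanine and other small neutral amino acids together with sodium (systems A and N), Slc7a carriers include those of arginine and lysine and the light chains that pair with the heavy chain Slc3a2, Slc1a carriers move glutamate or small neutral amino acids, Slc6a carriers move glycine, taurine, GABA and others with sodium and chloride, and Slc43a carriers move leucine and its relatives without a heavy chain. The liver takes up alanine and glutamine for glucose and urea production, and hormones, amino acid shortage and growth are known to raise system A activity in hepatocytes.

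Between 15982 and 17973 probes (median 16940) had a detection p-value under 0.05 on an array, and 30 to 39 of the 120 transporter probes (median 35) were detected on an array. There were 4 beadchips. On beadchip 1 lay control replicate 1, TCP 3 h replicate 1 and TCP 6 h, beadchip 2 the other arrays of TCP 3 h and replicates 1 and 2 of TCP 1 h, beadchip 3 control replicate 2, PH 1 h and replicates 1 and 2 of PH 3 h, and beadchip 4 control replicate 3, TCP 1 h replicate 3, PH 3 h replicate 3 and PH 6 h. Values are log2 signals after background correction and quantile normalisation, and a change is the difference between the means of 3 and 3 arrays, with its standard error (SE) from a limma model of all arrays. Calls needed an adjusted p under 0.05 over 11442 genes together with a 1.5-fold change or more, and "rose" and "fell" are used of called genes only. All 6 comparisons with control share the same 3 control arrays. In whole liver, fewer cells of a type and less RNA in each cell cannot be told apart.

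Most of the carriers were not called at any time. At 6 h after PH 6 of the 36 genes were called, 2 higher and 4 lower, while 20.7% of all genes were called at that time (8.79% higher, 11.9% lower), and the transporters (16.7%) thus lay near the background. At 3 h after PH, Slc7a2 alone was called (all genes 7.44%), and at 1 h none was (all genes 0.533%). An unadjusted limma p under 0.05 was found at PH 1 h for 5 of the 36 transporters and for 1200 of all 11442 genes. After TCP, limma called none at 1 h (all genes 0.14%), Slc7a2 at 3 h (all genes 1.03%) and 3 genes at 6 h, 1 higher and 2 lower (all genes 5.65%, with 2.72% higher and 2.94% lower). At TCP 1 h the unadjusted limma p was under 0.05 for 3 transporters and for 888 of all genes. The median change of the 36 genes at 6 h was -0.079 after PH and -0.083 after TCP, beside -0.078 and -0.024 over all genes. An F test over the 3 times called 9 transporters after PH (all genes 20.8%) and 3 after TCP (all genes 5.7%). It added Slc1a4, Slc38a9 and Slc7a8 to the genes called at single times after PH. After TCP it did not call Slc38a7 (limma adjusted p = 0.0655), which was called at TCP 6 h.

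**Figure D1:**
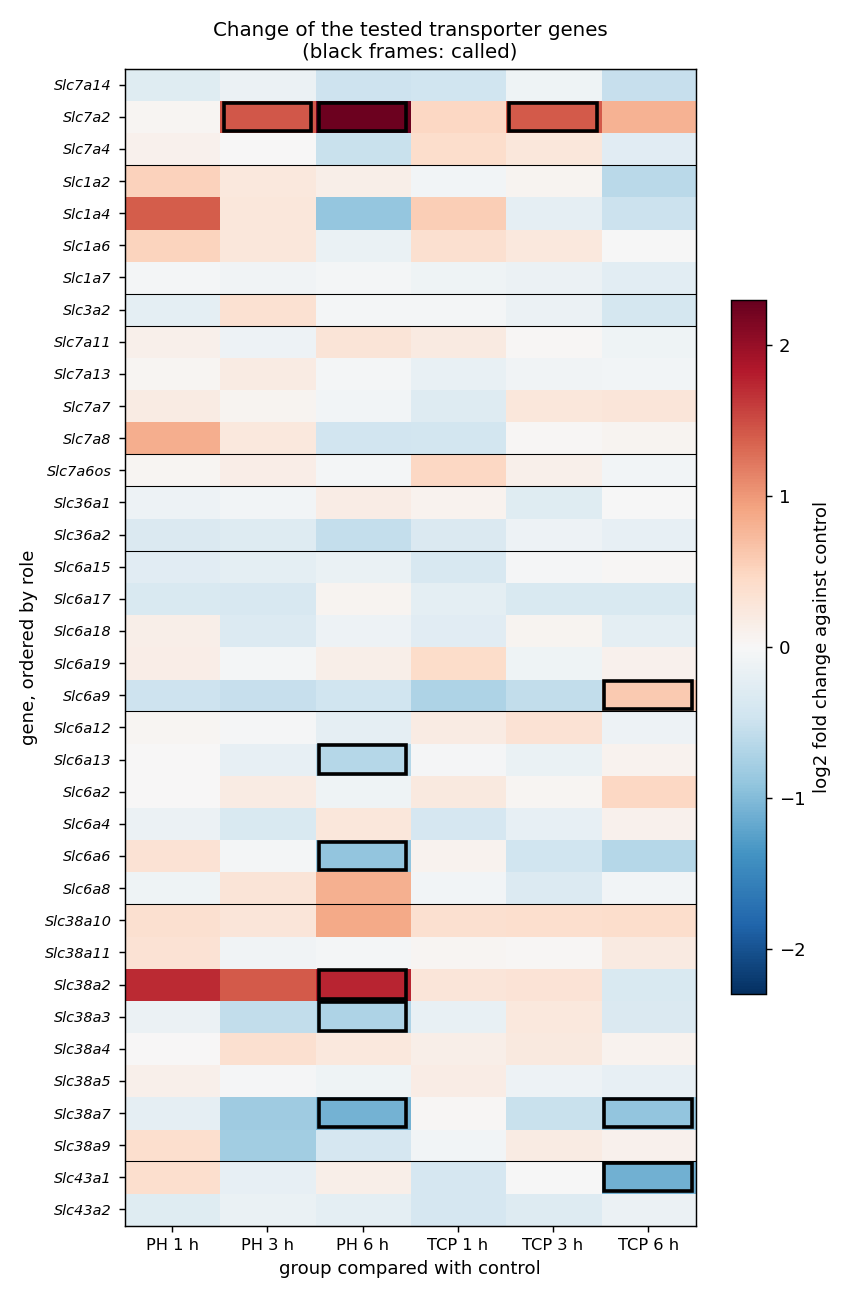
Log2 fold change of each of the 36 tested transporter genes (rows, by role) in the 6 treated groups against control (columns), with a black frame where a change was called. Slc7a2 is framed at PH 3 h, PH 6 h and TCP 3 h, and most rows hold no frame.

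Slc7a2, which encodes a carrier of arginine, lysine and ornithine that the liver is known to express, had the largest change against control of the 36 genes. Its log2 signal was 7.61, 7.29 and 7.89 on the control arrays, 7.20, 7.92 and 7.81 at PH 1 h, 8.77, 9.01 and 9.28 at PH 3 h, then 10.70, 9.49 and 9.38 at PH 6 h. All arrays of PH 3 h and PH 6 h lay above all controls, whereas those of PH 1 h overlapped with them. Slc7a2 rose at PH 3 h by 1.42 (SE 0.28, limma adjusted p = 0.00346) and at PH 6 h by 2.26 (SE 0.28, limma adjusted p = 2.15e-05), a 4.79-fold change. After TCP the log2 signal was 8.16, 8.21 and 7.83 at 1 h, then 9.40, 8.94 and 8.66 at 3 h, and finally 8.38, 8.39 and 8.41 at 6 h. The arrays of TCP 3 h were the highest of the TCP groups, and those of TCP 6 h also lay above all controls. Slc7a2 rose at TCP 3 h by 1.40 (SE 0.28, limma adjusted p = 0.0158), and the changes of 0.47 at 1 h and 0.80 at 6 h (limma adjusted p = 0.763 and 0.0977) were not called. With a beadchip term (the block) in the model the changes were 1.61 at PH 3 h and 2.20 at PH 6 h, both called (limma adjusted p = 0.00756 and 0.0017), and 1.29 at TCP 3 h (limma adjusted p = 0.228). Against the control of the same beadchip the changes were 1.60 (beadchip 3) and 1.38 (beadchip 4) at PH 3 h, 1.96 at PH 6 h and 1.79 at TCP 3 h. Each of these used 1 control array. The values of 1.38 and 1.79 also rest on 1 treated array each, PH 3 h replicate 3 and TCP 3 h replicate 1. On the normalised values of the authors they were smaller, at 0.74 at PH 3 h and 1.37 at PH 6 h, both called, and 0.73 at TCP 3 h, not called (limma adjusted p = 0.0248, 0.000102 and 0.0648). The call at TCP 3 h was lost without control replicate 1, control replicate 2 or TCP 3 h replicate 1 (1.20 to 1.57 over the 6 fits that left out 1 array).

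Other probes of Slc7a2 gave smaller values. They were detected on 8 and on 11 of the 21 arrays, and at PH 6 h their changes were 0.55 and 0.79 (limma adjusted p = 0.172 and 0.149 over all probes), neither of them called. At TCP 3 h they were -0.05 and 0.06. On the probe detected on 8 arrays the log2 signals were 4.71, 5.19 and 5.28 on the control arrays, 4.74, 4.99 and 5.08 at PH 3 h and 6.42, 5.19 and 5.23 at PH 6 h. The probe detected on 11 arrays had 5.05, 4.94 and 5.41, then 4.94, 5.38 and 5.81, and 7.30, 4.96 and 5.50. On both probes PH 3 h thus overlapped with the controls, and PH 6 h replicate 1 lay above the other arrays of its group. Of the other cationic carriers, Slc7a4 and Slc7a14 were tested and not called, and Slc7a1 and Slc7a3 did not pass the detection filter.

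**Figure D2:**
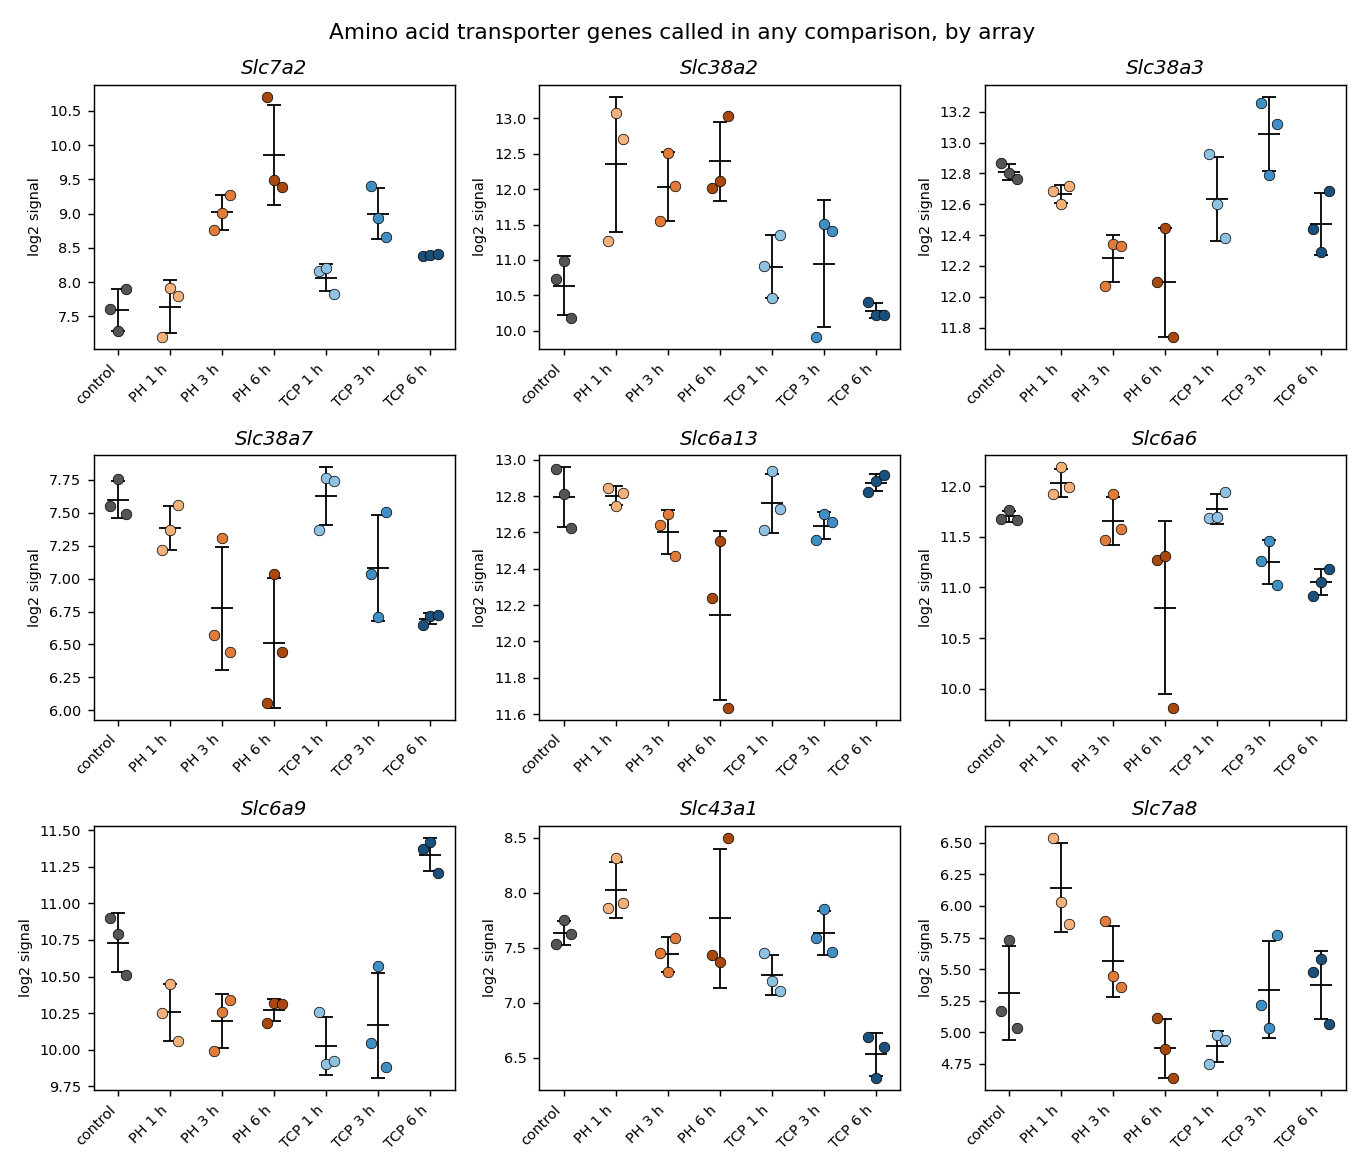
Log2 signal of the 9 transporter genes called in any comparison, 1 point per array, with the mean and SD (n = 3) of each of the 7 groups (x axis); each panel has its own y axis, which does not start at 0. Slc7a2 climbs to 10.70 at PH 6 h, Slc6a9 lies highest at TCP 6 h and Slc43a1 lowest at TCP 6 h, and PH 6 h replicate 3 is far from the other arrays of its group for Slc6a6 and Slc6a13.

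Among the system A and N carriers, Slc38a2 was higher and Slc38a3 and Slc38a7 were lower at PH 6 h. Slc38a2 encodes SNAT2, the sodium-coupled carrier whose gene is known to be induced by amino acid shortage, through an element in its own intron, and by hormones. Its log2 signal was 10.73, 10.99 and 10.18 on the control arrays, 11.27, 13.07 and 12.71 at PH 1 h, 11.55, 12.51 and 12.04 at PH 3 h, and 12.02, 12.12 and 13.04 at PH 6 h. All 9 PH arrays lay above all controls. The rise was called at PH 6 h (1.76, SE 0.48, limma adjusted p = 0.0145, 3.38-fold), while the values of 1.72 at PH 1 h and 1.40 at PH 3 h were not called (limma adjusted p = 0.142 and 0.0931). After TCP the log2 signal was 10.91, 10.46 and 11.35 at 1 h, then 9.91, 11.51 and 11.41 at 3 h, and finally 10.41, 10.22 and 10.22 at 6 h. These overlapped with the controls at every time, with changes of 0.27, 0.31 and -0.35 (limma adjusted p = 0.943, 0.851 and 0.762). At PH 6 h the change was 1.60 with the beadchip block (limma adjusted p = 0.101) and 2.22 within beadchip 4, and the call did not hold when control replicate 3 or PH 6 h replicate 3 was left out (1.44 to 1.94).

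Slc38a2 had a pair of further probes, each detected on all 21 arrays, and these were called at PH 3 h as well. Their changes were 1.510 and 1.497 at PH 3 h (limma adjusted p = 0.0131 and 0.0088 over all probes) and 1.10 and 1.36 at PH 6 h (limma adjusted p = 0.0327 and 0.00585). They parted from the brightest probe after TCP: at 1 h they gave 1.02 and 1.24 where the brightest gave 0.27, and at 6 h 0.34 and 0.35 where it gave -0.35, none of them called. All 3 probes carry the same transcript in the annotation, and which of them follows the transcript best was not tested.

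**Figure D3:**
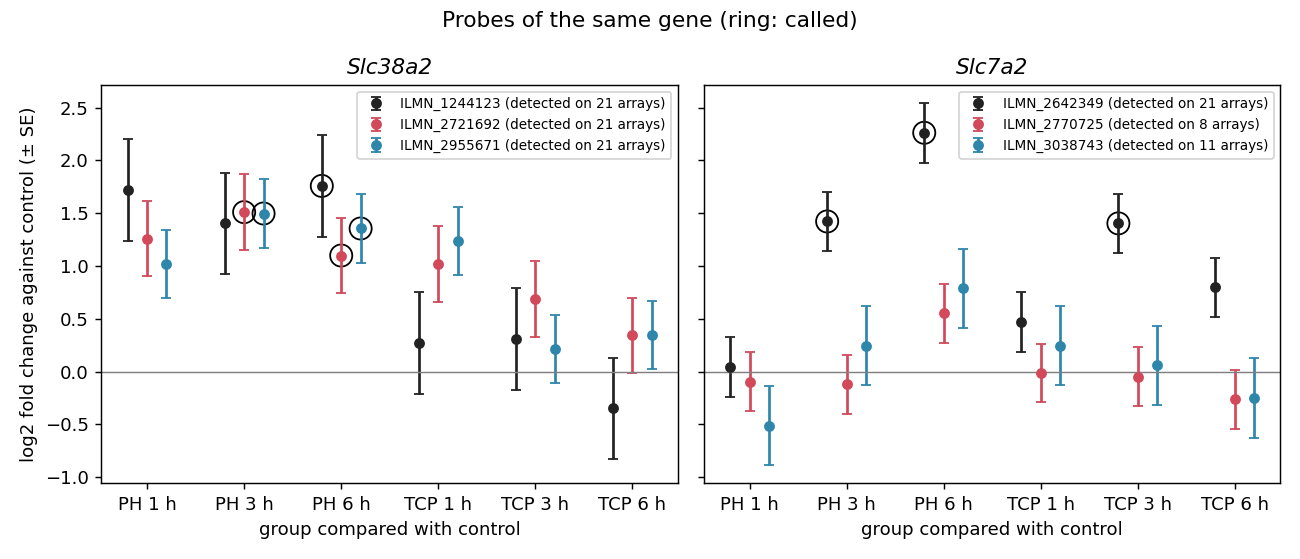
Log2 fold change against control (± SE) of each probe of Slc38a2 (left) and Slc7a2 (right) in the 6 treated groups, with a ring around called values and the brightest probe in black. The 3 probes of Slc38a2 lie between 1.10 and 1.76 at PH 6 h, whereas for Slc7a2 only the probe detected on 21 arrays is ringed.

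Slc38a3 encodes SNAT3, the system N carrier of glutamine and histidine in the hepatocyte. The log2 signal was 12.87, 12.80 and 12.76 on the control arrays and 12.69, 12.60 and 12.72 at PH 1 h. It was 12.07, 12.34 and 12.33 at PH 3 h and 12.09, 12.45 and 11.74 at PH 6 h, so that no PH group overlapped with the controls. The change of -0.14 at PH 1 h was not called. At PH 6 h it fell, the change being -0.72 (SE 0.17, limma adjusted p = 0.00444; -0.62 with the block, limma adjusted p = 0.0637; -0.67 within beadchip 4), and the call was lost without PH 6 h replicate 3 (-0.90 to -0.54). At PH 3 h its change of -0.56 had a limma adjusted p of 0.0471 but did not reach 1.5-fold. After TCP the log2 signal was 12.92, 12.60 and 12.38 at 1 h, then 13.26, 12.79 and 13.12 at 3 h, and finally 12.44, 12.29 and 12.69 at 6 h. Slc38a3 was not called at any of these times, although the TCP 6 h arrays also lay below all controls (change -0.34).

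Slc38a7 encodes SNAT7, which exports glutamine from lysosomes, and it was the only transporter called lower against control after both treatments. The F test over the TCP times did not call it (limma adjusted p = 0.0655). Log2 signals were 7.55, 7.75 and 7.49 on the control arrays, 6.06, 7.04 and 6.44 at PH 6 h and 6.65, 6.71 and 6.73 at TCP 6 h. The arrays of TCP 6 h were close together, those of PH 6 h were spread, and all 6 lay below all controls. The change was -1.08 at PH 6 h (SE 0.26, limma adjusted p = 0.00504; -0.97 with the block, limma adjusted p = 0.063; -0.97 within beadchip 4) and -0.90 at TCP 6 h (SE 0.26, limma adjusted p = 0.045; -0.77 with the block, limma adjusted p = 0.358; -0.85 within beadchip 1). The call at TCP 6 h was lost in each of the 6 fits that left out 1 array (-0.96 to -0.82), and that at PH 6 h in none (-1.35 to -0.86). At PH 3 h, where the arrays had 6.57, 7.30 and 6.45, the change of -0.82 was not called (limma adjusted p = 0.0606). On the normalised values of the authors the changes at 6 h were -0.32 after PH and -0.29 after TCP, under 1.5-fold.

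Of the other Slc38a genes, Slc38a4, the SNAT4 carrier of the hepatocyte membrane, had 9.69, 9.84 and 10.30 on the control arrays, 10.43, 10.21 and 9.89 at PH 6 h and 9.69, 10.46 and 9.94 at TCP 6 h. These values overlapped throughout, with a change of 0.23 at PH 6 h (95% interval -0.18 to 0.65). Slc38a9, which encodes the lysosomal arginine sensor of mTORC1, was called by the F test after PH only (limma adjusted p = 0.0338), with its largest change of -0.80 at PH 3 h not called by itself. Another Slc38a9 probe, detected on 9 arrays, gave 0.20 at that time (limma adjusted p = 0.757 over all probes), so that its probes had opposite signs. For Slc38a10 a probe detected on 9 arrays was called at PH 6 h (1.22, limma adjusted p = 0.0038 over all probes), while the brightest probe gave 0.87 and another probe -0.45, neither of them called. The probes of this gene thus did not move together.

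Sequence before the start of called genes was taken from the RefSeq promoter table (GRCm38.p6), which held 26 of the 36 tested genes and 6 of the 9 called ones, with 42 starts in all. The 250 bases before each start were searched on both strands for TGATGNAAN (the C/EBP-ATF amino acid response element), TGANTCA (AP-1), CACGTG (E-box) and TGACNNNGC (antioxidant response element), where an AP-1 site with C at its open position and GC after it would match the antioxidant element as well. The windows of Slc38a2, which rose after PH, of Slc38a7, which fell after both treatments, and of Slc43a1, which fell after TCP, are shown 5′ to 3′ with every match in capitals.
Slc38a2, chr15:96699729-96699978, strand minus: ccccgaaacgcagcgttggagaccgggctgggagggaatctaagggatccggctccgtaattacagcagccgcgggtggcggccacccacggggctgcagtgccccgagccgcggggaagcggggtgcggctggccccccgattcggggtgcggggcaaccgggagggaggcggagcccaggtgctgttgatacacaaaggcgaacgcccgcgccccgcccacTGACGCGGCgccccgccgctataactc
Slc38a7, chr8:95853492-95853741, strand minus: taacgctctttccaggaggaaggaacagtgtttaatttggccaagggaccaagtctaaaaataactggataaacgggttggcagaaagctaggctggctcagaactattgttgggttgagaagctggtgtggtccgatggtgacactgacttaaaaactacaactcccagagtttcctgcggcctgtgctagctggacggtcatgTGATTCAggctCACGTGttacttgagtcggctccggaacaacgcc
Slc43a1, chr2:84840073-84840322, strand plus: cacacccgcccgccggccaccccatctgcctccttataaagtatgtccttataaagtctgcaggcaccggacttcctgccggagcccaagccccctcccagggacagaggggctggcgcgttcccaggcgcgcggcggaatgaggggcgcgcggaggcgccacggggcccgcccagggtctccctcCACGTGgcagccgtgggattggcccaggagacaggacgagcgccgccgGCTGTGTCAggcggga
The capitals mark an antioxidant element in Slc38a2, and an E-box and then an antioxidant element in Slc43a1. In Slc38a7 they mark TGATTCA and then an E-box. TGATTCA matched the AP-1 pattern TGANTCA with T at its open position, where the search allowed any base. Of all 32851 promoters in the table, 3.44% held the amino acid response element, 6.75% the AP-1 pattern with any base at that position, 6.02% an E-box and 10.2% the antioxidant element. Over the 42 transporter starts the counts were 3, 5, 7 and 5. The called genes Slc7a2, Slc38a3 and Slc6a6 had no promoter entry and were not searched. The amino acid response element was found before Slc7a11 and Slc7a7 and in none of the searched windows of called genes. These matches describe letters in a window of 250 bases, and no binding was measured.

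Of the carriers of glutamate and small neutral amino acids, none was called at a single time. Slc1a4, which encodes the alanine, serine and cysteine exchanger ASCT1, had 7.22, 7.03 and 6.98 on the control arrays, 8.22, 7.84 and 9.38 at PH 1 h and 4.74, 7.68 and 6.14 at PH 6 h. All PH 1 h arrays lay above the controls (1.40, SE 0.54, limma adjusted p = 0.332), and the arrays of PH 6 h ranged from below detection to above all controls. The F test over the PH times called it (limma adjusted p = 0.0286). Slc1a2, the glutamate carrier that the liver shares with astrocytes, had 10.21, 9.94 and 10.40 on the control arrays, 10.59, 10.96 and 10.58 at PH 1 h and 9.17, 9.86 and 9.68 at TCP 6 h. Its changes of 0.53 at PH 1 h and -0.61 at TCP 6 h were not called (limma adjusted p = 0.452 and 0.148), although neither group overlapped with the controls. Further Slc1a2 probes, each detected on all 21 arrays, gave 0.70 and 0.61 at PH 1 h and -0.12 and -0.41 at TCP 6 h, none of them called.

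The heavy chain Slc3a2, which carries light chains such as Slc7a8 and Slc7a11 to the membrane, was detected on all arrays and was not called in any group. Its log2 signal was 6.29, 6.05 and 6.00 on the control arrays, 5.63, 6.46 and 6.09 at PH 6 h and 5.78, 5.62 and 5.74 at TCP 6 h, and its changes at 6 h were -0.05 (95% interval -0.55 to 0.44) and -0.40 (-0.89 to 0.09). Slc7a8 encodes LAT2, a light chain for neutral amino acids. It had 5.17, 5.73 and 5.03 on the control arrays, 6.54, 6.03 and 5.86 at PH 1 h and 4.75, 4.98 and 4.94 at TCP 1 h, and was detected on 2 of 3 control arrays, on all of PH 1 h and PH 3 h and on none of PH 6 h or TCP 1 h. Neither the higher values at PH 1 h nor the lower ones at TCP 1 h were called against control (0.83 and -0.42, limma adjusted p = 0.161 and 0.763). Slc7a11, the cystine and glutamate exchanger, was detected on 4 of the 21 arrays and Slc43a2 (LAT4) on 5, with changes against control of -0.12 to 0.29 and of -0.38 to -0.13 and no call. Of the other light chains, Slc7a7 and Slc7a13 were tested and not called.

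Among the Slc6a carriers, Slc6a13 and Slc6a6 fell at PH 6 h and Slc6a9 rose at TCP 6 h. Slc6a13 encodes GAT2, the GABA carrier of the liver. It had 12.95, 12.81 and 12.62 on the control arrays, 12.24, 12.55 and 11.64 at PH 6 h and 12.82, 12.88 and 12.92 at TCP 6 h. The PH 6 h arrays lay below all controls, 1 of them by a wide margin, and the TCP 6 h arrays lay within their range. The change at PH 6 h was -0.65 (SE 0.17, limma adjusted p = 0.00703; -0.54 with the block, limma adjusted p = 0.0992; -0.48 within beadchip 4), and it was not called once control replicate 1 or PH 6 h replicate 3 was left out (-0.86 to -0.40).

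Slc6a6 encodes the taurine carrier. It had 11.67, 11.77 and 11.67 on the control arrays, 11.27, 11.32 and 9.81 at PH 6 h and 10.92, 11.05 and 11.18 at TCP 6 h. Every array of both groups lay below all controls, and PH 6 h replicate 3 was the lowest of the 21 arrays. At PH 6 h it fell, the change being -0.91 (SE 0.26, limma adjusted p = 0.0156; -0.90 with the block, limma adjusted p = 0.0997; -0.87 within beadchip 4). Leaving out control replicate 2 or PH 6 h replicate 3 ended the call, and in the latter case the change was -0.41. At TCP 6 h the change of -0.65 was not called (limma adjusted p = 0.149). A further Slc6a6 probe, detected on all arrays, gave 0.13 at PH 6 h (limma adjusted p = 0.828 over all probes), so that the fall was seen by 1 of its 2 probes.

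Slc6a9 encodes the glycine carrier GlyT1. Its log2 signal was 10.90, 10.79 and 10.51 on the control arrays, 10.18, 10.32 and 10.31 at PH 6 h, 10.26, 9.90 and 9.93 at TCP 1 h, 10.05, 10.57 and 9.88 at TCP 3 h and 11.37, 11.42 and 11.20 at TCP 6 h. The TCP 6 h arrays were the 3 highest of all 21. Slc6a9 rose at TCP 6 h by 0.60 (SE 0.18, limma adjusted p = 0.0452; 0.49 with the block, limma adjusted p = 0.387; 0.44 within beadchip 1; 0.56 and under 1.5-fold on the values of the authors), a 1.52-fold change just past the limit, and the call was lost in each fit that left out 1 array (0.49 to 0.68). In the 5 other groups the values were below control, by -0.70 at TCP 1 h to -0.46 at PH 6 h, and none was called (limma adjusted p = 0.144 and 0.0638 for these). The creatine carrier Slc6a8, the betaine and GABA carrier Slc6a12 and the other tested Slc6a genes were not called.

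Slc43a1 encodes LAT3, a carrier of leucine and other large neutral amino acids found in liver, and it fell at TCP 6 h. Log2 signals were 7.53, 7.75 and 7.63 on the control arrays, 7.44, 7.37 and 8.50 at PH 6 h, 7.59, 7.85 and 7.46 at TCP 3 h and 6.69, 6.31 and 6.59 at TCP 6 h. The TCP 6 h arrays were the 3 lowest of all 21, and PH 6 h replicate 3 was the highest. The change at TCP 6 h was -1.10 (SE 0.25, limma adjusted p = 0.0106; -1.07 with the block, limma adjusted p = 0.177; -1.0 within beadchip 1). A further probe, detected on all arrays, gave -1.12 (limma adjusted p = 0.0315 over all probes). The call was lost without control replicate 2 or TCP 6 h replicate 2 (-1.18 to -0.995), and on the values normalised by the authors the change was -0.34.

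The 21 tested genes that are not named with values by the rule lay between -0.80 and 0.87 against control, with a lowest limma adjusted p of 0.108. Of them 13 were detected on fewer than 11 arrays. A further 22 transporter genes had no probe that passed the filter, among them Slc1a5, Slc38a1, Slc7a1 and Slc43a3, and their levels are given no value here. No probe annotated to Slc7a5, Slc3a1, Slc36a4 or Slc38a6 was matched, and these were not analysed here.

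PH and TCP were then compared directly at each time. At 6 h 5 of the 36 transporters differed, 3 higher and 2 lower after PH, while 10.1% of all genes were called (4.65% higher, 5.43% lower). At 1 h the only call was Slc7a8 (all genes 0.288%) and at 3 h Slc38a3 (all genes 4.25%). Slc38a2 was higher at PH 6 h than at TCP 6 h by 2.11 (SE 0.48, limma adjusted p = 0.00926), Slc7a2 by 1.46 (SE 0.28, limma adjusted p = 0.00165) and Slc43a1 by 1.24 (SE 0.25, limma adjusted p = 0.00216). Slc6a9 was lower after PH (-1.06, SE 0.18, limma adjusted p = 0.000421), as was Slc6a13 (-0.73, SE 0.17, limma adjusted p = 0.00591). For these 5 genes the arrays of the treatments did not overlap. Only the difference of Slc6a13 was lost when 1 array was left out, namely PH 6 h replicate 3. With the 2 other probes of Slc38a2 the difference was 0.76 and 1.01 and not called (limma adjusted p = 0.206 and 0.0565 over all probes). The other Slc43a1 probe was called at 1.17 (limma adjusted p = 0.013). On the normalised values of the authors the difference of Slc43a1 was 0.42, under 1.5-fold and thus not called, and that of Slc7a2 was 1.0 and called (limma adjusted p = 0.00954 and 0.00223).

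At 3 h Slc38a3 was lower after PH than after TCP (-0.81, SE 0.17, limma adjusted p = 0.00816), a call lost without PH 3 h replicate 1. At 1 h Slc7a8 was not detected on the TCP arrays, and its mean of 6.14 after PH was at least 2.02-fold higher than the dimmest detected signal of those arrays (measured mean 4.89, limma adjusted p = 0.0288). This bound takes the PH mean as exact, and the measured difference of 1.25 had a 95% interval of 0.73 to 1.78. On the normalised values of the authors the measured difference was 0.18 and not called (limma adjusted p = 0.051). That call was lost without PH 1 h replicate 1 or any TCP 1 h array. PH and TCP arrays of a time never shared a beadchip, and with the beadchip as a block none of these 7 differences was called, at 1.51 for Slc38a2, 1.66 for Slc7a2, 1.17 for Slc43a1, -0.91 for Slc6a9, -0.55 for Slc6a13, -0.59 for Slc38a3 and 0.81 for Slc7a8 (limma adjusted p = 0.178 to 0.918). The fall of Slc38a7 was not found to differ between the treatments at 6 h (-0.18, 95% interval -0.73 to 0.37).

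**Figure D4:**
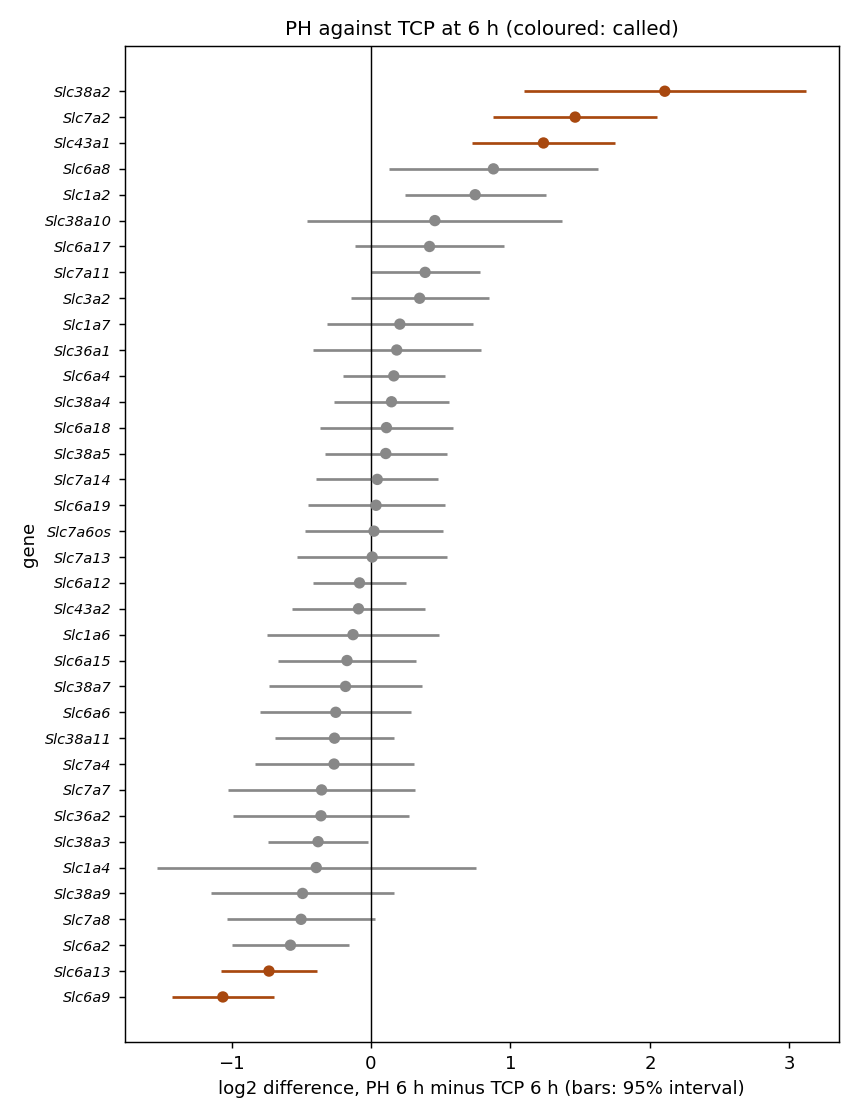
Log2 difference between PH 6 h and TCP 6 h for the 36 tested transporter genes (points) with 95% intervals (bars), called genes in colour. Slc38a2, Slc7a2 and Slc43a1 lie above 1 and Slc6a9 lies below -1.

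Over all 18 called changes (11 against control and 7 between the treatments), the beadchip block kept 2, the normalised values of the authors kept 11, and 7 held whichever array was left out. Both changes that the block kept were those of Slc7a2 after PH. Over all genes the block also left fewer calls, at PH 6 h 535 higher and 634 lower beside 1006 and 1364 without it. Of the 6 transporters called at PH 6 h, 2 were called without PH 6 h replicate 3, Slc7a2 and Slc38a7. None of the 18 changed direction under these settings.

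**Figure D5:**
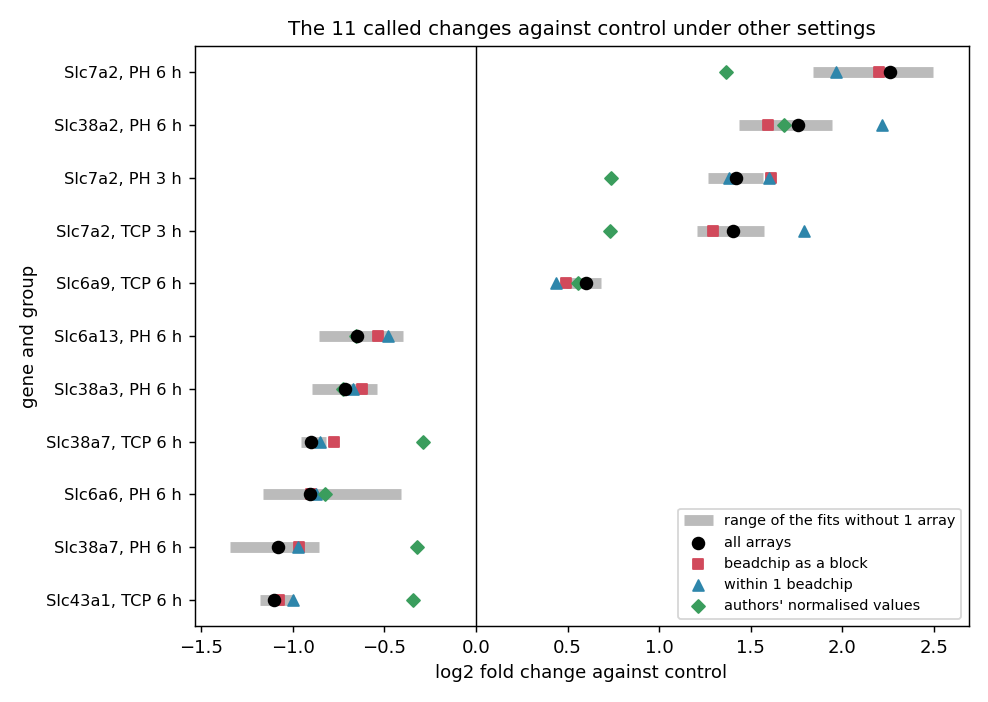
Log2 fold change against control of the 11 called changes (rows) with all arrays, with the beadchip as a block, within 1 beadchip and on the normalised values of the authors, over the range of the fits without 1 array (grey bars). Every point keeps the side of 0 of the black point, and the authors' values are nearer to 0 for Slc7a2, Slc38a7 and Slc43a1.

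Genes of amino acid sensing and use were counted beside the carriers, on lists chosen with results of these arrays known. Of 24 tested genes of the ATF4 amino acid response, 5 rose and 3 fell at PH 6 h (33.3%, all genes 20.7%), with a median change of 0.56 beside -0.08 over all genes, and of these 8 calls the block kept 1, that of Cebpb. Cebpb, a transcription factor of the liver's early growth response, rose by 1.88 (limma adjusted p = 7.67e-06) and Ppp1r15a, which restores translation, by 1.39 (limma adjusted p = 0.0249). Trib3, a pseudokinase that ATF4 induces, fell with a change of -1.84 (limma adjusted p = 0.0239). Atf3, a stress-induced repressor, was not detected on the control arrays, and its mean was at least 8.57-fold higher (limma adjusted p = 0.025). This bound takes the PH 6 h mean as exact, while the measured change of 3.41 had an SE of 1.01. At PH 3 h 3 of the 24 genes rose and 0 fell (12.5%, all genes 7.44%). These were Atf3, Cebpb and Ppp1r15a, and the block kept all 3 calls (limma adjusted p = 0.0187, 0.00112 and 0.0173). At TCP 6 h Cebpb alone was called (1.06, limma adjusted p = 0.00514, all genes 5.65%), also with the block.

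Of 16 tested genes of glutamine, glutamate, alanine and serine metabolism, 2 rose and 4 fell at PH 6 h (37.5%, all genes 20.7%, with 8.79% higher and 11.9% lower). None was called after TCP, where few genes were called in all (0.14%, 1.03% and 5.65% at 1, 3 and 6 h). Shmt1, the cytosolic serine hydroxymethyltransferase, fell, its change being -2.01 (limma adjusted p = 0.000137), Gpt2, the mitochondrial alanine aminotransferase, rose by 0.99 (limma adjusted p = 0.00276) and Oat, the ornithine aminotransferase, by 0.82 (limma adjusted p = 0.00394), while Prodh2, a hydroxyproline dehydrogenase, fell, the change being -0.62 (limma adjusted p = 0.0191). The block kept the calls of Shmt1, Gpt2 and Oat and not that of Prodh2 (limma adjusted p = 0.171). Of 31 tested genes of amino acid sensing by mTORC1, 1 rose and 6 fell at PH 6 h (22.6%, near the 20.7% of all genes), and the block kept 4 of these 7 calls. Among the 7 were Deptor, an mTOR inhibitor, at -1.35 (limma adjusted p = 0.000187), the GATOR1 subunits Nprl2 at -1.23 and Depdc5 at -1.05 (limma adjusted p = 0.000743 and 0.0117), which restrain mTORC1, and the leucine sensor family member Sesn1 at -1.13 (limma adjusted p = 0.0388), of which Sesn1 was not called with the block (limma adjusted p = 0.287). The remaining calls were Flcn at -0.94, Rptor at -0.76 and Seh1l, which rose, at 0.96 (limma adjusted p = 0.00781, 0.00386 and 0.000289). The block kept the call of Seh1l and not those of Flcn or Rptor (limma adjusted p = 0.00727, 0.139 and 0.0838). At TCP 6 h Deptor alone was called (-0.75, limma adjusted p = 0.0456, all genes 5.65%), but not with the block (limma adjusted p = 0.308).

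Of 16 tested genes of other amino acid or peptide carriers and of partner proteins, 4 rose and 1 fell at PH 6 h (31.2%, all genes 20.7%), and the block kept 3 of these 5 calls. Sgk1, a kinase that is known to raise the surface level of many carriers, rose by 2.17 (limma adjusted p = 1.64e-05), Nedd4l, the ubiquitin ligase it acts on, by 1.47 (limma adjusted p = 0.00197), and Slc16a10, an aromatic amino acid carrier, by 1.43 (limma adjusted p = 0.00259), of which Nedd4l was not called with the block (limma adjusted p = 0.0593). At TCP 6 h (all genes 5.65%) Sgk1 rose by 1.29 (limma adjusted p = 0.0055) and Slc17a8, a vesicular glutamate carrier, by 2.55 (limma adjusted p = 0.0313), neither called with the block. Of 21 tested cytosolic aminoacyl-tRNA synthetase genes and their scaffold proteins, none was called after TCP (all genes 0.14%, 1.03% and 5.65% at 1, 3 and 6 h). At PH 6 h 4 of them rose (19%, near the 20.7% of all genes). These were Farsa, Rars, Eef1e1 and Aimp2, at 0.96, 0.88, 0.76 and 0.71 (limma adjusted p = 0.0175, 0.00144, 0.0231 and 0.024), and the block kept Rars and Aimp2 but not Farsa or Eef1e1 (limma adjusted p = 0.0627 and 0.0662).

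Markers of cell types were set beside these values. All 10 hepatocyte markers, such as albumin, were detected on every array, with a mean log2 signal of 13.004 to 13.45 on an array, and 1 of them was called higher at PH 6 h and 1 at TCP 3 h. Of 8 tested neutrophil markers, 1, 3 and 3 were called higher at PH 1, 3 and 6 h and none after TCP, and their mean log2 signal was 4.67 to 4.89 on the control arrays, 6.39 to 6.72 at PH 3 h and 5.82 to 6.07 at PH 6 h. None of the 8 had been detected on all control arrays. Of 10 sinusoidal endothelial markers 1 was called higher at PH 3 h, and 4 were called higher and 1 lower at PH 6 h, and of 8 tested macrophage markers none was called in any group. Of 10 stellate cell markers 1 was called higher and 1 lower at PH 6 h, of 3 tested cholangiocyte markers 1 was called higher at PH 3 h, and the 1 tested pancreatic acinar marker was called lower at PH 6 h. The 4 tested red blood cell markers had median changes of -0.21, -1.13 and -1.40 at PH 1, 3 and 6 h and -1.21, -2.07 and -1.38 at TCP 1, 3 and 6 h. At PH 3 h, PH 6 h and TCP 3 h 1 of them was called lower. Of 3 tested T and B cell markers none was called in any group. Over all genes 0.533%, 7.44% and 20.7% were called at PH 1, 3 and 6 h. After TCP the shares were 0.14%, 1.03% and 5.65%. At PH 6 h the hepatocyte and stellate cell counts did not exceed that share, and the marker counts were not tested against it. Some markers of several cell types were thus among the genes called when Slc38a2 and Slc7a2 were. Their part in those changes was not tested.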

How the data were processed

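Liver RNA of 21 mice was hybridised to Illumina mouse beadchips. The methods name the WG-6 beadchip, whose probe number the table has, while the labels name MouseRef-8. The authors deposited a table of signal intensity, summarised by probe and not normalised between arrays, with a detection p-value per probe and array, which the authors' software computed against negative control beads. They also deposited quantile normalised log2 values, used here as an alternative. Background subtraction before deposit is not stated. Gene symbols came from the platform annotation (34885 probes with 1 symbol, 18 with several, 10378 with none), and no genome build is named for the probes.

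Signals were corrected, quantile normalised and log2 transformed with neqc of limma 3.58.1 (R 4.3.3, offset 16, negative controls inferred from the detection p-values). Probes detected at p under 0.05 on at least 3 arrays and with 1 symbol were kept (17970), and the brightest stood for each of 11442 genes. The offset makes fold changes of dim genes too small. A model with 7 group means was fitted to all arrays with limma (eBayes with trend and robust), with Benjamini-Hochberg adjustment over all genes. Levels were compared between arrays for the same probe, never between probes. Each array is a separate mouse, and their number limits the precision.

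The members, the lists and the rule for named genes were chosen with earlier results of these data known. Named with values were the members called in any comparison with control and a fixed set of further carriers. In each list the 4 largest changes among genes called at PH 6 h or TCP 6 h were named. Other genes were named after their values were seen, where a small count or a single probe turned on them. The remaining calls of the mTORC1 list were also named after their values were seen. Alternatives were the normalised values of the authors, no background correction, median scaling, other filters, single probes, the beadchip or the replicate number as a block, only the compared groups, fits within a beadchip and leaving out each array. The labels give no shared source for same-numbered replicates and the correlations of their deviations were not all over 0.1, so the numbers were not used to pair arrays. The fit was tested on simulated data.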

Additional observations from a re-analysis of the deposited data

Results flagged for a closer look

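Results are listed here where PH and TCP differed in a direct test at a matched time. At 6 h the differences, PH minus TCP on the log2 scale, were 2.11 for Slc38a2, 1.46 for Slc7a2, 1.24 for Slc43a1, -1.06 for Slc6a9 and -0.73 for Slc6a13. At 3 h the difference was -0.81 for Slc38a3, and at 1 h the measured difference was 1.25 for Slc7a8. Its signal after TCP stayed below detection on all 3 arrays, so that only a bound, at least 2.02-fold, can be given there. That bound takes the PH mean as exact and leaves out the spread of the arrays. On the normalised values of the authors the differences of Slc7a8 and Slc43a1 were 0.18 and 0.42 and not called. The arrays of PH and TCP lay on different beadchips at each time, and beadchip and treatment cannot be told apart within a time.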

How the results depend on the processing

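None of the 18 called changes turned direction under the alternatives run. Of the 18 calls, the values of the authors kept 11, quantile normalisation without background correction 14, median scaling 15, no detection filter 16, single probes 16, detection on at least 7 arrays 18, adjusted p alone 18, and the beadchip block 2; a plain eBayes, an alternative chosen after seeing the data, kept 17. The counts of transporters called were 1, 6, 1 and 3 at PH 3 h, PH 6 h, TCP 3 h and TCP 6 h with all arrays. With the beadchip block they were 1 at PH 6 h, 0 at TCP 3 h and 0 at TCP 6 h, 0 for each difference between PH and TCP, and by the F test 1 after PH and 0 after TCP. Over all 11442 genes the block also left fewer calls than the main model. These were 535 higher and 634 lower at PH 6 h, 9 and 1 at TCP 3 h, and 48 and 30 at TCP 6 h. For the difference between PH and TCP at 6 h they were 16 and 16. With the block the list counts for the ATF4 response were 0, 3, 1, 0 and 0 at PH 1 h, PH 3 h, PH 6 h, TCP 1 h and TCP 3 h. They were 1 and 3 for glutamine and serine metabolism at PH 3 h and PH 6 h, 0 for mTORC1 sensing at TCP 6 h and 2 for tRNA synthetases at PH 6 h. For other carriers they were 0, 2 and 3 after PH and 0, 0 and 0 after TCP at 1, 3 and 6 h. On the values of the authors the counts of transporters were 0 at TCP 3 h (all genes 40 higher and 38 lower), 0 at TCP 6 h (167 and 149), 0 for the difference at 1 h (10 and 3) and 1 for the F test of TCP. Without background correction they were 1 at TCP 6 h (all genes 240 and 248) and 0 for the difference at 1 h (14 and 3). With median scaling they were 2 at PH 3 h (all genes 536 and 335) and 0 for that difference (20 and 7). With adjusted p alone the count was 2 at PH 3 h (all genes 459 and 414). At TCP 6 h it was 1 with single probes (all genes 283 and 303) and 1 with no filter (244 and 241). With only the compared groups in the fit, 395 of all genes were called higher and 366 lower at PH 3 h. These all-gene calls were 85 and 72 at TCP 1 h, and 687 and 800 at TCP 6 h. For the differences between PH and TCP they were 13 and 11 at 1 h and 275 and 247 at 6 h. The counts of transporters in that fit were 2 at PH 3 h, 1 at TCP 1 h, 6 at TCP 6 h, 0 and 3 for the differences at 1 and 6 h, and 4 and 5 for the F tests of PH and TCP. Within beadchips, with 1 control array each and the lone array assumed to vary like the others, they were 0 at PH 3 h (beadchips 3 and 4), 0 at PH 6 h (beadchip 4) and 0 at TCP 6 h (beadchip 1). The cause of these shifts was not tested.

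Leaving out 1 array gave 0 to 1 at PH 1 h, 1 to 3 at PH 3 h, 2 to 9 at PH 6 h, 0 to 0 at TCP 1 h, 0 to 2 at TCP 3 h and 0 to 1 at TCP 6 h, 0 to 1, 0 to 1 and 5 to 6 for the differences at 1, 3 and 6 h, and 4 to 9 and 2 to 4 for the F tests of PH and TCP. The count was 1 without PH 1 h replicate 1, 3 at PH 3 h without replicate 2, and 2 at PH 6 h and 4 in the F test without PH 6 h replicate 3. At TCP 3 h it was 0 without control replicate 1, control replicate 2 or TCP 3 h replicate 1, and 2 without TCP 3 h replicate 2. At TCP 6 h it was 0 without control replicate 2 or TCP 6 h replicate 2 and 1 without each other array. The difference at 1 h was 0 without PH 1 h replicate 1 or any TCP 1 h array, and at 3 h 0 without PH 3 h replicate 1. With the replicate number as a block all 18 calls were kept. Deviations of same-numbered arrays had median correlations of 0.011, -0.013 and 0.031, 13 of 21 arrays correlated best with their own number, and the samples share only a number. Genes detected on few arrays, 15 of the 36, have signals close to background, where changes are compressed.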
